A study of Saccharomyces cerevisiae with 6 samples.

Results

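NMD2 (YHR077C) is the budding yeast gene of the decay factor Nmd2, also called Upf2, and one of the minority of yeast genes that carry an intron. It was described here by every read class deposited for it and by the splice junctions that share an end with its annotated intron. These are 1 gene of the 312 in the read-class tables and 1 annotated junction of the 267 annotated nuclear junctions listed, and no other junction shares an end with it. NMD2 was chosen because its junction reads differed between each mutant and WT in an earlier analysis of these libraries. Its values for mutant against WT are therefore a description, given with a standard error (SE) and no test. The comparison of the fast with the slow mutant was tested.

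RNA came from 3 strains in log phase, 2 biological replicates each, 6 libraries in all. Every strain lacks UPF1, and in every strain the chromosomal rpb1 deletion is covered by a LEU2 plasmid that carries RPB1 or an allele of it. WT (CKY690) has RPB1, the fast mutant (CKY772) has rpb1-G1097D and the slow mutant (CKY691) has rpb1-H1085Y, alleles that raise or lower the elongation rate of RNA polymerase II (RNAPII), whose largest subunit RPB1 encodes. Total RNA was depleted of rRNA and sequenced from strand-specific libraries, with 7682741 to 11033195 reads per library in the read-class tables and 4127729 to 6863818 unique split reads in the junction tables. UPF1 and RPB1 were not analysed here, since these tables hold genes with an intron or another interrupted reading frame.

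Nonsense-mediated decay (NMD) removes mRNAs whose reading frame ends too early. It needs Upf1, an RNA helicase that meets the terminating ribosome, and Nmd2, which links Upf1 to Upf3. Loss of any of these factors stabilises largely the same mRNAs, so the pathway was already inactive in all 3 strains, WT included. Splicing of a yeast intron relies on a 5′ splice site (5′SS), a branch point whose adenosine attacks it, and a 3′ splice site (3′SS) that ends in AG.

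The NMD2 intron lies on the minus strand at chrVIII:255638-255750 (R64, sacCer3) and is 113 nt long, between an exon 1 of 6 coding bases and an exon 2 of 3264 coding bases. The gene's coding region spans chrVIII:252374-255756. The intron is printed because every split, boundary and junction read below is defined by its ends. Capitals mark the 5′SS hexamer, the branch point heptamer and the last 3 bases. The start of the spliced reading frame follows, with the exon 1 bases in capitals. Both sequences were read from the RefSeq R64 genome.
NMD2 intron: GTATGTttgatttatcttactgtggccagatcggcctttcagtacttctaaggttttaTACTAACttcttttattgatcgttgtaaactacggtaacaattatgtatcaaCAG
NMD2 spliced start: ATGGACgatggacggaaaaaagaattgcat

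The intron begins with GTATGT, as do 76.0% of the 267 annotated introns, and holds TACTAAC once, a heptamer found on the sense strand of 220 of them (82.4%). It ends in CAG, as do 116 (43.4%). From the branch point adenosine to the last intron base it has 49 nt, against a median of 34 nt over the introns with TACTAAC, and no other AG lies between that heptamer and the 3′SS. The same holds for 125 of the 220 introns with TACTAAC (56.8%). At 113 nt the intron is shorter than the median of 134 nt, and 117 introns (43.8%) are as long or shorter. Its length leaves a remainder of 2 when divided by 3. If the intron is kept, the frame meets a stop codon at intron bases 49 to 51, after 18 sense codons in place of the 1089 of the spliced frame.

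Spliced NMD2 RNA was several times more abundant in both mutants than in WT. The authors' read classes gave 87 and 87 reads across the spliced NMD2 junction for WT, 236 and 430 for fast, 325 and 454 for slow. CPM values, which relate a count to all junction reads of the library after TMM scaling, were 41.2 and 44.3 for WT, 117 and 214 for fast, 170 and 183 for slow. The 4 mutant libraries lay above both WT libraries. The WT pair differed by 1.07-fold and the slow pair by 1.07-fold, whereas the fast pair differed by 1.83-fold. CPM is relative to the other reads of a library, so that NMD2 RNA per cell was not measured.

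In junction reads the log2 difference from WT was 1.95 in fast (SE 0.330), or 3.86-fold, and 2.04 in slow (SE 0.330), or 4.12-fold. Among the 265 genes tested, NMD2 had the 2nd highest difference in fast and the 6th highest in slow, where the median gene stood at 0.01 and 0.05. The 265 include frameshift genes, whose parts are joined in translation and not by splicing. Above NMD2 in slow stood the frameshift genes YDR034C-D, YNL284C-B, YGR027W-B and YCL019W, and SPO1 (SE 1.30). In fast, 10.2% of all genes were called higher and 14.3% lower at an adjusted p under 0.05, and in slow 14.3% were called higher and 28.3% lower. These contrasts chose the gene, so nothing is read from its place among them. Without the first fast library the difference in fast was 2.32, and without the second it was 1.47. Scaled by all reads of a library, the differences were 1.80 and 1.87, with the median gene lower by a shift of −0.15 and −0.17.

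The mutants were not shown to differ from each other in spliced NMD2 RNA. The log2 difference of fast minus slow was −0.09 (SE 0.307), with a 95% interval from −0.70 to 0.51, that is from 0.617- to 1.42-fold (edgeR quasi-likelihood test, adjusted p = 0.834). In this comparison 19.6% of the 265 genes were called higher in fast and 14.3% lower. The interval leaves room for a difference of either sign.

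The junction tables count the same spliced molecules by another route, as split reads that STAR placed once in the genome. Unique split reads over the NMD2 intron numbered 291 and 302 for WT, 895 and 1331 for fast, 794 and 1405 for slow. Scaled to the annotated junctions, these were 54.8 and 63.4 CPM for WT, 152 and 225 for fast, 195 and 257 for slow. Again every mutant library lay above both WT libraries, while fast and slow overlapped.

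For these split reads the log2 difference was 1.67 in fast (SE 0.226) and 1.94 in slow (SE 0.227), and fast minus slow was −0.27 (SE 0.214, 95% interval −0.73 to 0.20, edgeR adjusted p = 0.334). Multiply mapped split reads over the intron numbered at most 4 in any library. The split reads exceeded the read-class junction reads 3.10 times over the 6 libraries, against a median of 2.03 over 228 genes with at least 100 junction reads. Among the 44 of these genes with at most 6 coding bases in exon 1, as in NMD2, the median ratio was 4.80 and the range 1.64 to 19.8.

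**Figure D1:**
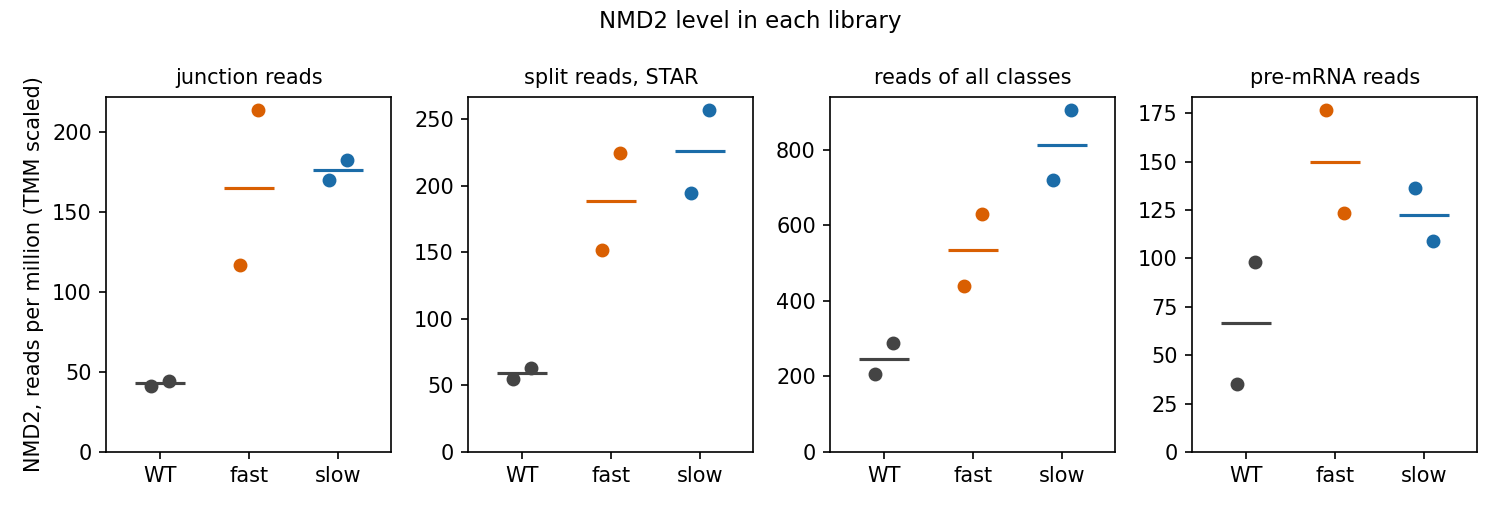
NMD2 level in each library, in CPM after TMM scaling, for 4 kinds of read. Points are libraries (WT grey, fast orange, slow blue), lines are strain means and each axis starts at 0. All mutant libraries lie above both WT libraries in each panel, most narrowly for pre-mRNA reads, where the second WT library at 98.2 is close to the second slow library at 109.

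Exon 2 holds almost the whole coding region and took 92.0 to 94.5% of all NMD2 reads. Its reads numbered 1926 and 2516 for WT, 4244 and 6134 for fast, 5671 and 9750 for slow. Divided by the relative size of each library, they were 1926 and 2415 for WT, 3813 and 5458 for fast, 4755 and 7516 for slow. The mutants lay above WT, and fast and slow overlapped, with the highest value in the second slow library.

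Reads of all classes together numbered 2048 and 2678 for WT, 4571 and 6671 for fast, 6097 and 10320 for slow. After TMM scaling they were 206.3 and 288.0 CPM for WT, 440 and 630 for fast, 719 and 906 for slow, so that the 3 strains did not overlap. The log2 difference from WT was 1.11 in fast (SE 0.216), or 2.16-fold, and 1.72 in slow (SE 0.219), or 3.29-fold. The medians of all 312 genes were 0.02 and 0.13.

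In this measure NMD2 was lower in fast than in slow. The log2 difference of fast minus slow was −0.60 (SE 0.212, 95% interval −1.09 to −0.11, edgeR adjusted p = 0.0394), in a comparison where 33.7% of the 312 genes were called lower in fast and the median gene stood at −0.11. The call was lost without the first fast library (−0.37, adjusted p = 0.191), without the first slow library (−0.76, adjusted p = 0.0586) and without the second slow library (−0.43, adjusted p = 0.226). It was also lost when the libraries were scaled by all their reads (−0.38, adjusted p = 0.131) or by DESeq2 size factors (−0.50, adjusted p = 0.0746). Scaling by all reads moved the median gene by 0.23 in the same direction as NMD2, from −0.11 to 0.12.

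In the read classes, junction reads thus stood further above WT than exon 2 reads did. There were 22.1 and 28.9 exon 2 reads per junction read for WT, 18.0 and 14.3 for fast, 17.4 and 21.5 for slow. The 4 mutant libraries were below both WT libraries, and the means were 25.5 ± 4.80 for WT, 16.1 ± 2.63 for fast and 19.5 ± 2.85 for slow (SD, n = 2 each). The gap between the first WT and the second slow library was smaller than the spread within either strain. This ratio needs no scaling between libraries, and since it uses the contrasts that chose the gene it was not tested. It depends on how spliced reads are counted. Split reads per junction read were 3.34 and 3.47 for WT, 3.79 and 3.10 for fast, 2.44 and 3.09 for slow. Set against split reads, exon 2 reads put both slow libraries between the WT libraries, while both fast libraries stayed below them.

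**Figure D2:**
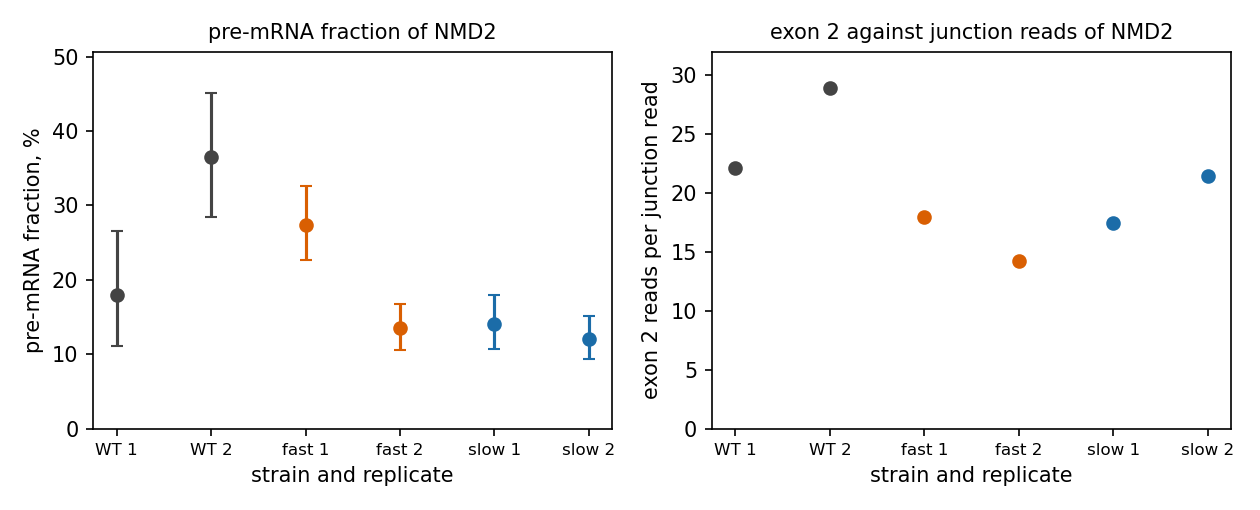
Left, the pre-mRNA fraction of NMD2 in each library in percent, with exact 95% intervals for counting error, and right, exon 2 reads per junction read in each library, both axes starting at 0. The fraction differs as much between replicates of WT and of fast as between strains, and the 4 mutant libraries have fewer exon 2 reads per junction read than both WT libraries. For slow this does not hold with split reads in place of junction reads.

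Reads counted as unspliced NMD2 RNA were few and uneven between replicates. All of its pre-mRNA reads lay on the boundary of intron and exon 2. They numbered 19 and 50 for WT, 89 and 67 for fast, 53 and 62 for slow. The classes of exon 1, of its boundary with the intron and of the intron alone held 0 reads in every library. Of 260 nuclear genes of 2 exons in these tables, 45 have at most 6 coding bases in exon 1, and 14 of these 45 had no read in exon 1 or on its boundary either.

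After scaling, pre-mRNA reads were 34.9 and 98.2 CPM for WT, 177 and 123 for fast, 136 and 109 for slow. The WT replicates differed by 2.81-fold. The log2 difference from WT was 1.17 in fast (SE 0.640) and 0.88 in slow (SE 0.644), with wide errors, and without the second WT library these became 2.08 and 1.79. Scaled by all reads the difference in slow was 0.46, with the median gene shifted by −0.42. Fast minus slow was 0.29 (SE 0.624, 95% interval −1.01 to 1.60, edgeR adjusted p = 0.766).

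The pre-mRNA fraction, pre-mRNA reads over the sum of pre-mRNA and junction reads, was 17.9 and 36.5% for WT, 27.4 and 13.5% for fast, 14.0 and 12.0% for slow. Split reads exceeded these junction reads 3.10 times, so the fraction is relative to the read-class count and would be lower with split reads. The exact (Clopper-Pearson) 95% intervals of the WT libraries, 11.2 to 26.6% and 28.4 to 45.1%, did not overlap. Nor did those of the fast libraries, 22.6 to 32.6% and 10.6 to 16.8%. The slow libraries had 10.7 to 17.9% and 9.34 to 15.1%. Replicates of WT and of fast thus differed by more than counting error would give if reads were independent. The slow libraries lay at or below the others except the second fast library. These intervals leave out variation between replicates, and they are too narrow where reads are copies of 1 molecule.

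On the log2 scale the ratio of pre-mRNA to mRNA differed from WT by −0.59 in fast (SE 0.758) and by −1.29 in slow (SE 0.755). The value in fast changed sign with single libraries. It was 0.15 without the second WT library and 0.04 without the second fast library. Fast minus slow was 0.70 (SE 0.727, 95% interval −0.97 to 2.38, edgeR adjusted p = 0.566). The interval allows a difference of either sign, with replicates of WT and of fast as far apart as described above.

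A further class, reads over exon 1, intron and exon 2, held 16 and 25 reads for WT, 2 and 40 for fast, 48 and 54 for slow. The fast replicates lay at the lowest and at an intermediate value. What this class counts at an intron of this length is not stated in the sources used here, so that it entered only the sum of all classes.

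**Figure D3:**
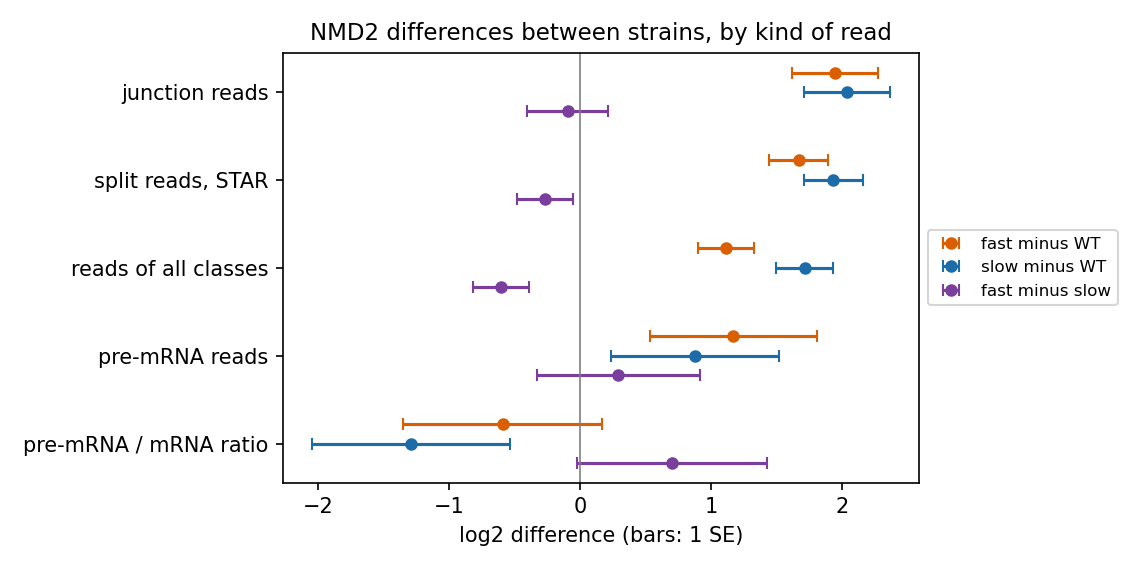
Log2 differences between strains for NMD2 by kind of read, with bars of 1 SE from the fit over all genes. Junction and split reads stand at 1.67 to 2.04 above WT in both mutants, reads of all classes at 1.11 in fast and 1.72 in slow, and the pre-mRNA reads and their ratio to mRNA have SEs of 0.624 to 0.758.

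Splicing errors were looked for at the same intron. No unannotated junction that shares an end with the annotated NMD2 intron was listed in any of the 6 libraries, and none lay inside the gene. The annotated junction had 5018 unique split reads over the libraries and ranked 195th of 267 by these reads. Of 61 annotated introns with reads within 2-fold of that number, 10 (16.4%) likewise had no unannotated junction at either end, and the others had up to 9, with a median of 2 over the 61. Over all 267 introns, 39 (14.6%) had none. STAR lists an unannotated junction only above its own minimum of overhang and reads, so that events below these could be missed. No limit on their frequency was computed.

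The neighbours of NMD2 gave the local background. PTC7, the gene of a protein phosphatase of type 2C, lies on the other strand at chrVIII:251101-252225, with its coding region ending 148 nt from that of NMD2. Its reads of all classes numbered 3958 and 3718 for WT, 5404 and 5864 for fast, 4734 and 5845 for slow. After scaling it was higher by 0.43 on the log2 scale in fast (SE 0.0923, edgeR adjusted p = 0.0118) and by 0.42 in slow (SE 0.0923, adjusted p = 0.00506). In this measure 70 of the 312 genes were called in fast and 187 in slow, counting both directions, so that such a call is common in slow. In junction reads the difference of PTC7 was 0.40 in fast (SE 0.228, edgeR adjusted p = 0.205) and 0.57 in slow (SE 0.228, adjusted p = 0.0322), against 1.95 and 2.04 for NMD2. Without frameshift genes, whose parts are joined in translation, the 15 other nuclear genes of chromosome VIII with tested junction reads had a median difference of 0.29 in fast and 0.12 in slow, from −0.61 to 0.95 and from −0.74 to 0.71. The 217 nuclear genes on other chromosomes, likewise without frameshift genes, had medians of 0.01 and −0.07. The frameshift gene YHL009W-B, also on chromosome VIII, stood at 1.34 in fast and 1.60 in slow.

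The 5 genes most like NMD2 over the 6 libraries were found by the root mean square difference of log2 CPM of junction reads, centred on each gene's mean. They were YHL009W-B (0.40), YDR210W-B (0.50), YPR202W (0.57), IWR1 (0.58) and PSP2 (0.59), out of 264 genes with a median of 0.997. YHL009W-B and YDR210W-B are transposon reading frames whose parts are joined by a ribosomal frameshift and not by splicing. IWR1 encodes a factor of the nuclear import of RNAPII, and PSP2 an RNA-binding protein.

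YHL009W-B had 51 and 43 junction reads for WT, 126 and 110 for fast, 121 and 191 for slow. IWR1 had 124 and 244 for WT, 311 and 372 for fast, 351 and 381 for slow. YDR210W-B had 58 and 152 for WT, 414 and 398 for fast, 352 and 435 for slow, and its log2 differences from WT were 1.94 in fast and 1.78 in slow, close to those of NMD2. In each of these genes the WT libraries were the lowest. PSP2 had 112 and 115 for WT, 165 and 220 for fast, 182 and 223 for slow. YPR202W had 12 and 23 for WT, 43 and 52 for fast, 27 and 42 for slow. In these genes too both WT libraries had the lowest counts, a pattern for which all 5 were picked. The likeness is a description over 6 libraries that share the same 3 strains.

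**Figure D4:**
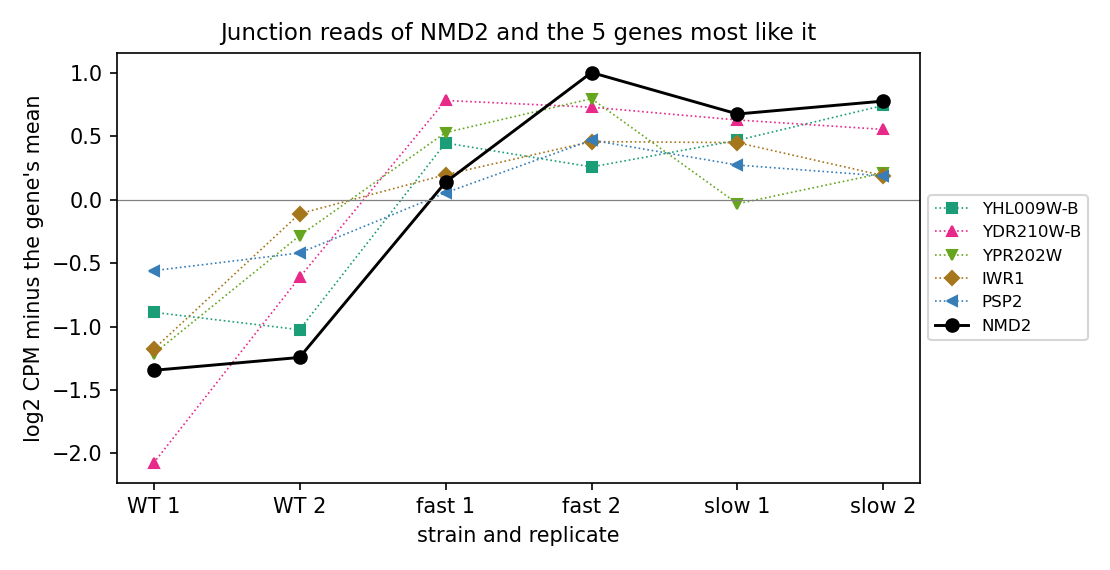
Junction reads of NMD2 (black) and of the 5 genes nearest to it by root mean square difference, as log2 CPM minus the gene's own mean, for each of the 6 libraries. NMD2 is low in both WT libraries and high in the second fast and both slow libraries, with the first fast library between them, and the 5 other genes have a smaller or less even step. YHL009W-B, at a root mean square difference of 0.40, follows it most closely.

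NMD2 was set beside a list of 15 intron-containing genes of RNA decay, splicing, export and tRNA modification. Of these, 11 were in the tables and tested, and CBC2, MTR2, SUS1 and TAD3 were not analysed here. In fast, 3 of the 11 had more junction reads than in WT at an adjusted p under 0.05 (10.2% of all genes did) and 1 had fewer (14.3%). The list's median log2 difference was 0.11 against 0.01 for all genes. In slow, 1 member passed the test, with fewer reads, where 28.3% of all genes were called lower and 14.3% higher, and the list's median was 0.37 against 0.05. Between fast and slow, 2 were higher in fast (19.6% of all genes) and 1 was lower (14.3%). With 11 members, these counts do not set the list apart from all genes.

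Among members tied to mRNA decay, LSM2 and LSM7 encode subunits of the Lsm ring that activates decapping and of the ring on U6 snRNA. LSM2 had 2200 and 2406 junction reads for WT, 1625 and 1947 for fast, 1791 and 3046 for slow. Its log2 difference was −0.36 in fast (edgeR adjusted p = 0.0802) and −0.07 in slow (adjusted p = 0.713). LSM7 stood at 0.11 in fast (adjusted p = 0.750) and 0.37 in slow (adjusted p = 0.142). Neither passed the test.

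DBP2, a DEAD-box RNA helicase that binds Upf1, moved in opposite directions in the mutants. It had 1721 and 1383 junction reads for WT, 2266 and 2390 for fast, 879 and 1297 for slow. It rose by 0.60 in fast (SE 0.169, edgeR adjusted p = 0.00268) and fell by 0.63 in slow (SE 0.171, adjusted p = 0.00110), and fast minus slow was 1.23 (SE 0.172, adjusted p = 3.64e-11). The rise in fast lost its call without the second WT library (0.50, adjusted p = 0.0946) and when scaled by all reads (0.45, adjusted p = 0.248). The fall in slow lost it without the first WT library (−0.53, adjusted p = 0.0578) and without the first slow library (−0.46, adjusted p = 0.122).

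STO1 encodes the large subunit of the nuclear cap-binding complex, and YRA1 an adaptor of mRNA export. STO1 had 484 and 335 junction reads for WT, 588 and 669 for fast, 490 and 645 for slow, and rose by 0.64 in fast (SE 0.246, edgeR adjusted p = 0.0402). This call held without the first fast library and was lost without any other library, with adjusted p from 0.0567 without the first slow to 0.321 without the second WT library, and 0.290 when scaled by all reads. YRA1 rose by 0.53 in fast (SE 0.135, adjusted p = 0.000876) and was higher in fast than in slow by 0.42 (SE 0.134, adjusted p = 0.00827). The first call was lost without the first WT library (0.38, adjusted p = 0.0875) or when scaled by all reads (0.39, adjusted p = 0.290). The second was lost without the second fast library (adjusted p = 0.134) or either slow library (adjusted p = 0.150 and 0.202), and when scaled by all reads (adjusted p = 0.164).

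TAN1, the gene of a protein of tRNA acetylation, had the largest differences of the list between fast and WT and between fast and slow. It had 816 and 814 junction reads for WT, 267 and 339 for fast, 969 and 1178 for slow. It fell by 1.41 in fast (SE 0.229, edgeR adjusted p = 7.44e-08) and stood at 0.29 in slow (SE 0.221, adjusted p = 0.278). Fast minus slow was −1.71 (SE 0.230, adjusted p = 8.86e-12), and both calls held without any single library. The mutants thus differed for TAN1, where NMD2 was high in both.

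For the ratio of pre-mRNA to mRNA, edgeR called 0 of the 11 members in fast, in slow and between the mutants, where it called 9.20, 0.400 and 11.6% of the 250 genes tested. At an unadjusted p under 0.05 there were 0, 1 (YSF3) and 2 (DBP2 and YSF3), and DESeq2 called 0 in each comparison. YSF3 encodes a subunit of the SF3b complex of U2 snRNP.

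**Figure D5:**
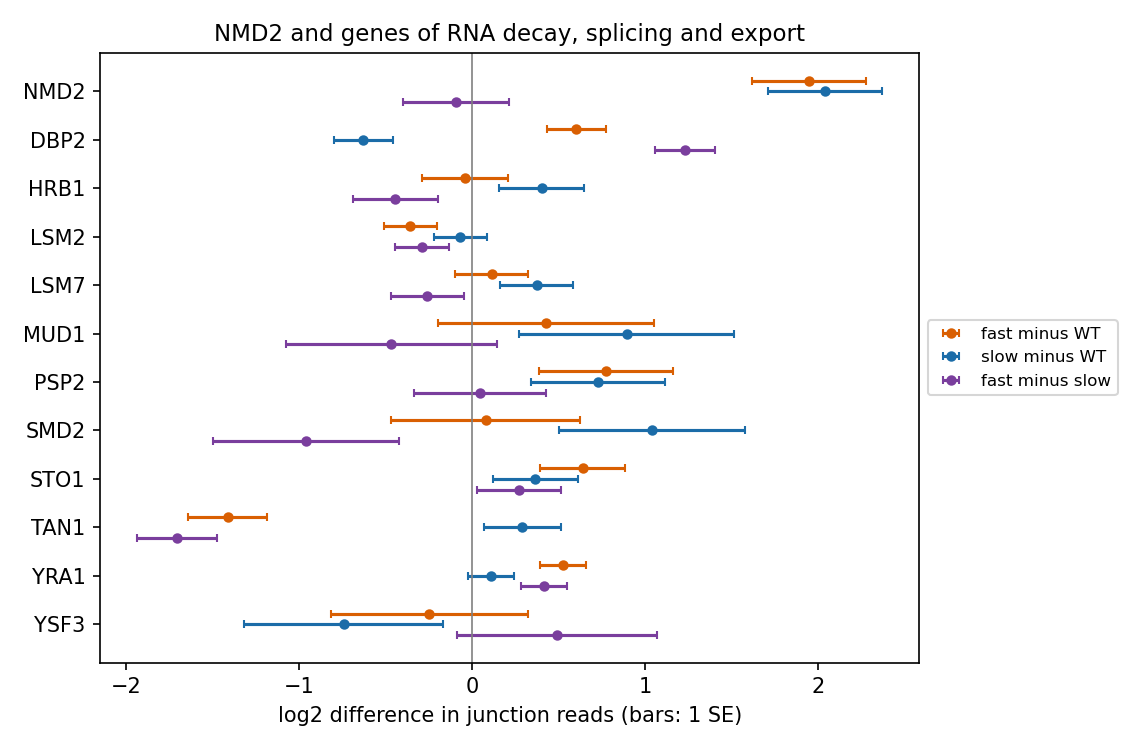
Log2 differences in junction reads between strains for NMD2 and the 11 tested genes of RNA decay, splicing, export and tRNA modification, with bars of 1 SE. NMD2 stands at 1.95 and 2.04 above WT, DBP2 has opposite signs in the mutants, and TAN1 stands at −1.41 in fast and 0.29 in slow.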

How the data were processed

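The authors aligned strand-specific paired-end reads to R64 (sacCer3) with STAR (version: not given in the sources used here) and deposited raw counts of unique and multiply mapped split reads per junction. With DICEseq they deposited raw counts per gene and read class, whose use of strand is not stated. Their deposited FPKM values served only for relative library totals (count divided by FPKM), from 1 to 1.30.

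Pre-mRNA reads are boundary plus intron reads, mRNA reads those across the junction. Counts were tested with edgeR 4.0.16 (R 4.3.3) by quasi-likelihood after TMM scaling and its low-count filter, all 6 libraries in 1 fit, with Benjamini-Hochberg adjustment over all genes. The ratio was tested on 2 columns per library, for genes holding at least 10 reads per kind over the libraries. DESeq2 1.42.0, other scalings, filters, a replicate block and leaving out each library were alternatives. The fits were also run on simulated counts, with changes placed in genes that had more pre-mRNA reads than NMD2. The simulation used the same spread for every gene, which was not taken from NMD2. It does not show how the fits perform at the pre-mRNA counts or the replicate spread of NMD2. CPM for the pattern comparison used a prior count of 2. Other steps used Python 3.11.15, pandas 2.3.3 and matplotlib 3.10.9.

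NMD2, the gene list and the tests were chosen with earlier results of these data known. Named genes were NMD2, list members past an adjusted p of 0.05 in any junction comparison, LSM2, LSM7, DBP2, STO1 and CBC2 where tested, and the 5 genes nearest in pattern. Comments on YSF3, PTC7 and the genes of the ratio were added after the values were seen.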

Additional observations from a re-analysis of the deposited data

Results flagged for a closer look

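NMD2 reads of all classes differed between the effects of the mutants. The log2 difference of fast minus slow was −0.60 (SE 0.212, edgeR adjusted p = 0.0394), with 440 and 630 CPM in fast and 719 and 906 in slow. Over the alternatives the adjusted p ran from 6.28e-06 to 0.226. Junction reads of the same gene differed by −0.09 between the mutants, and whether the kinds of read differ from each other was not tested.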

How the results depend on the processing

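For NMD2 the direction of each difference of a mutant from WT was kept under every alternative run, except for the ratio of pre-mRNA to mRNA in fast. When each library was left out in turn, junction reads gave 1.47 to 2.32 for fast against WT and −0.68 to 0.28 for fast minus slow, split reads counted by STAR gave 1.37 to 1.91 for fast against WT, and pre-mRNA reads gave 0.61 to 2.08 for fast against WT, 0.32 to 1.79 for slow against WT and −0.0025 to 0.53 for fast minus slow. The ratio in fast ran from −1.24 to 0.15. The sign of fast minus slow turned without the first fast library in junction reads (0.28) and in pre-mRNA reads (−0.0025), and no call was made there. For reads of all classes, fast minus slow ran from −0.89 to −0.37, and its call was lost with DESeq2 size factors (−0.50) and with scaling by all reads (−0.38), which moved the median of all genes by 0.10 and 0.23. The test of DESeq2 kept it (−0.50, adjusted p = 0.0326). Other causes of these changes were not tested.

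Of the 11 list members tested, 4 were called in junction reads in fast, 1 when scaled by all reads and 2 to 4 with a library left out. In slow 1 was called, 2 without frameshift and mitochondrial genes, and 0 to 2 with a library left out.

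Over all genes, scaling by all reads took the calls in junction reads from 65 to 24 in fast, from 113 to 73 in slow and from 90 to 37 between the mutants, and those in reads of all classes between the mutants from 183 to 116. DESeq2 called 41, 9 and 48 genes for the ratio where edgeR called 23, 1 and 29.

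The labels give a replicate number and do not state whether libraries with the same number were handled together. In junction reads, the deviations of such libraries from the strain means correlated at −0.06 (fast and WT), −0.27 (slow and WT) and 0.13 (fast and slow) over 265 genes. These correlations were not computed for reads of all classes. With the replicate block, fast minus slow was −0.14 in junction reads, 0.30 in pre-mRNA reads, −0.27 in split reads, 0.70 in the ratio and −0.62 in reads of all classes (adjusted p = 6.28e-06). The genes called in reads of all classes between fast and WT went from 70 to 135 with it. In that measure the SE of NMD2 for fast minus slow went from 0.212 to 0.0807, and NMD2 was higher in the second library of every strain. The cause was not tested.

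With 2 libraries per strain, and with 19 to 89 pre-mRNA reads of NMD2 per library, the error of the ratio is wide.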
